A study of Mus musculus with 6 samples.

Results

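The genes of the mitochondrial genome are 37 in number, 13 mRNAs, 2 rRNAs and 22 tRNAs, and all 37 were found among the 56953 Ensembl genes of the count tables by symbols that begin with mt-. Their RNA was measured in primary wild-type C57BL/6 natural killer (NK) cells, cytotoxic lymphocytes taken from the spleen and kept in culture with recombinant human interleukin-2 (1700 U/ml). The hypoxia group held 3 libraries of cells kept for 7 days at 1% oxygen, and the normoxia group held 3 libraries of cells kept for 7 days at 20% oxygen, both with 5% CO2. The labels call the libraries biological replicates without naming animals or cultures, so the tests reflect only how far these libraries vary, which may in part be technical. Oxygen is the electron acceptor of the respiratory chain, and the comparison set the RNA of the mitochondrial genome at low oxygen against that at the usual oxygen of culture.

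The mitochondrial genome is a small circle with a heavy and a light strand, both copied into long precursor RNAs by the RNA polymerase POLRMT with the factors TFAM and TFB2M. Most genes are transcribed from the promoter of the heavy strand in the order rRNAs first and cytochrome b last, while mt-Nd6 and 8 of the tRNAs are read in the opposite direction. The tRNAs lie between the other genes, and enzymes that cut at their ends release the rRNAs and mRNAs from the precursor. The mRNAs encode core membrane subunits of complexes I, III and IV of the respiratory chain and of ATP synthase, whose other subunits come from nuclear genes, and the rRNAs build the mitochondrial ribosome that translates them.

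The junction between the end of the large-subunit rRNA mt-Rnr2 and the start of the first mRNA, mt-Nd1, is shown because the direction of the change in hypoxia differed on its 2 sides. It is written along the heavy-strand transcript, with 20 bases on either side and the leucine tRNA gene mt-Tl1 between them in capitals (75 bases). In human mitochondria this tRNA gene also holds the binding site of the termination factor MTERF1. All sequences here come from the transcripts of GENCODE M21 on the build GRCm38 and are written 5′ to 3′.
mt-Rnr2 end, mt-Tl1, mt-Nd1 start: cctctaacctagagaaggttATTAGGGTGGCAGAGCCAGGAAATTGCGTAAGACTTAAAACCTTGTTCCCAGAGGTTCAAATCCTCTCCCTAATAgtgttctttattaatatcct

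The last 18 bases of the mRNAs are shown for mt-Nd1, mt-Co1, mt-Co3, mt-Nd4 and mt-Cytb because the libraries were prepared as strand-specific mRNA libraries, a type of preparation that commonly selects RNA by its poly(A) tail. Most mitochondrial mRNAs have hardly any untranslated sequence, and a short poly(A) tail added after cleavage completes the stop codon of some. The capitals mark the stop codon or what the genome encodes of it. It is complete in 10 of the 13 mRNAs, and in mt-Co3, mt-Nd4 and mt-Cytb only its T is encoded.
mt-Nd1 3′ end: gtaccaccatacataTAG
mt-Co1 3′ end: tatgtaaaagtaaaaTAA
mt-Co3 3′ end: tttattgatgaggatctT
mt-Nd4 3′ end: ttacaggcctgacaataT
mt-Cytb 3′ end: tactaaaattatatccaT

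Each library held between 55104810 and 55794698 estimated counts over 24096 to 26483 genes above 0. The 13 mRNAs held 1.44% to 1.7% of these counts in hypoxia libraries and 2.12% to 3.02% in normoxia libraries, and the 2 rRNAs held 0.269% to 0.301% in hypoxia libraries and 0.153% to 0.18% in normoxia libraries. Levels are given in CPM, counts scaled to the size of the library, with TMM as a correction for its composition. On a principal component analysis of all tested genes the groups separated on the first component (55.5% of the variance), and the 2 replicate 1 libraries stood apart from the other 4 on the second (22%), at 23.2 and 35 against -20.2 to -11.4. Leaving both out kept 12 mRNAs called lower, with 9.37% of all genes, and 2 rRNAs called higher, with 11.5% of all genes.

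After 7 days of hypoxia the mRNAs of the mitochondrial genome were lower and its rRNAs were higher than in normoxia. Of the 13 mRNAs, 12 were lower and 0 were higher by the quasi-likelihood test of edgeR (Benjamini-Hochberg adjusted p under 0.05, over 15591 genes), where 9.72% of all tested genes were called lower. DESeq2's Wald test called 11 of the 13 lower (11.2% of all genes) and limma-voom 12 (9.76% of all genes), each with 0 higher, and at an unadjusted p under 0.05 the edgeR test also gave 12 lower and 0 higher. Both rRNAs were called higher, where 11.2% of all tested genes were. All 12 kept every hypoxia library below every normoxia library, where 18.7% of all tested genes did. The median log2 fold change was -0.92 over the 13 mRNAs and -0.0052 over all genes tested.

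The summed mRNA level was 16497, 14215 and 14292 CPM in the hypoxia libraries, against 32056, 25721 and 21607 CPM in the normoxia libraries. Every hypoxia library lay below every normoxia library, and the mean on the log2 scale was lower by a difference of -0.80, which corresponds to 57.3% of the normoxia level. The summed rRNA level was 2928, 2704 and 2660 CPM in hypoxia, against 1623, 1812 and 1767 CPM in normoxia, again without overlap but with hypoxia above (159% of normoxia, log2 difference 0.67). Each sum had a two-sided exact permutation p of 0.1, the smallest that 3 against 3 libraries can give. In bulk RNA, fewer cells of a type, fewer mitochondria per cell and less RNA per mitochondrion cannot be told apart.

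**Figure D1:**
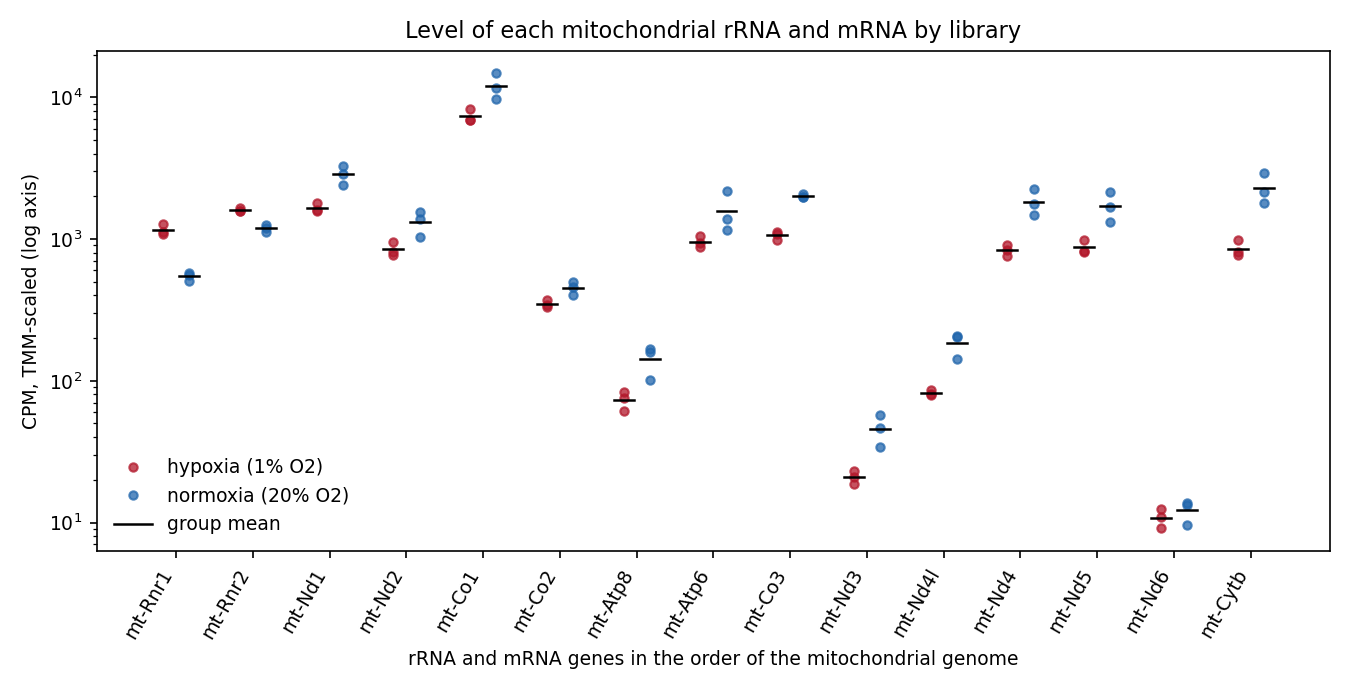
Level of each mitochondrial rRNA and mRNA (CPM, log axis) in genome order, with 1 point per library, hypoxia left of normoxia, and a bar at each group mean (n = 3). The hypoxia points lie above the normoxia points for mt-Rnr1 (1159 against 546 CPM on average) and mt-Rnr2, below them for 12 mRNAs such as mt-Cytb (857 against 2293 CPM), and among them for mt-Nd6.

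The rRNAs had unequal fold changes. The small-subunit rRNA mt-Rnr1 had 1273, 1125 and 1078 CPM in hypoxia libraries, against 502, 559 and 577 CPM in normoxia libraries. This was 1159 ± 102 CPM in hypoxia and 546 ± 39.2 CPM in normoxia (SD, n = 3 each), a log2 fold change of 1.09 (standard error 0.093, adjusted p by edgeR 6.1e-05). The lowest hypoxia library thus lay well above the highest normoxia library. The large-subunit rRNA mt-Rnr2 had 1655, 1579 and 1582 CPM in hypoxia libraries and 1121, 1253 and 1190 CPM in normoxia libraries. It rose by less, with a log2 fold change of 0.43 (standard error 0.077, adjusted p by edgeR 0.0036), and its groups did not overlap either. The ratio of mt-Rnr1 to mt-Rnr2 was 0.769, 0.712 and 0.682 in hypoxia, against 0.448, 0.446 and 0.485 in normoxia. This ratio was chosen after its parts had been seen and was not tested.

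Set against the mRNAs of the same libraries, the rRNAs stood at 17.8%, 19% and 18.6% of the summed mRNA level in hypoxia, against 5.06%, 7.04% and 8.18% in normoxia. The gap between the groups was wider than the spread within either, at 18.5% ± 0.648 in hypoxia and 6.76% ± 1.58 in normoxia (SD, n = 3 each, log2 difference 1.48, exact permutation p = 0.1). This measure was added after the data had been seen. Across the junction printed above, the level of mt-Rnr2 over that of mt-Nd1 was 0.93, 0.992 and 1.01 in hypoxia, against 0.34, 0.438 and 0.495 in normoxia, and was not tested.

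Because the libraries are of an mRNA type, histone and small structural RNAs, which mostly lack a poly(A) tail, were examined beside the rRNAs. Of 57 tested genes, 1 was called higher and 15 lower in hypoxia, where 11.2% and 9.72% of all genes were, with a median log2 fold change of -0.61 and a summed level of 145 to 173 CPM in hypoxia and 165 to 218 CPM in normoxia. Rpph1, the RNA of nuclear ribonuclease P, was lower (log2 fold change -2.0, SE 0.51, adjusted p by edgeR 0.021), as was the histone gene Hist1h2ap (-1.31, SE 0.24, adjusted p by edgeR 0.0041); both were picked after their values were seen. The call of Rpph1 was lost without hypoxia replicate 2 (adjusted p = 0.059) or normoxia replicate 3 (0.074). The 1 member called higher was Hist2h2be (0.47, SE 0.13, adjusted p by edgeR 0.027), and 41 of the 57 were not called. Most of the list is histone genes, so it holds few other RNAs without a tail. The part of tail selection in the differences of this list and of the mitochondrial rRNAs was not tested.

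Complex I, the NADH dehydrogenase that begins the chain, takes 7 of the 13 mRNAs. For mt-Nd1, whose protein lies where the peripheral and membrane arms meet, hypoxia libraries had 1781, 1592 and 1572 CPM and normoxia libraries 3294, 2862 and 2406 CPM. Its log2 fold change was -0.79 (SE 0.12, adjusted p by edgeR 0.0013). The proton-pumping subunit mt-Nd2 had 946, 808 and 777 CPM in hypoxia, against 1548, 1391 and 1032 CPM in normoxia (-0.65, SE 0.14, adjusted p = 0.01). Both were thus lower in each hypoxia library than in any normoxia library, with the lowest normoxia value in replicate 3.

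The complex I genes mt-Nd4l, mt-Nd4 and mt-Nd5, later on the heavy strand, had more negative fold changes. The pump subunit mt-Nd4 had 906, 764 and 830 CPM in hypoxia libraries and 2245, 1779 and 1482 CPM in normoxia libraries (log2 fold change -1.14, SE 0.14, adjusted p by edgeR 0.0005). The short gene mt-Nd4l just before it, whose product lies in the membrane arm, had 86.6, 81.2 and 78.9 CPM in hypoxia and 207, 203 and 143 CPM in normoxia (-1.16, SE 0.13, adjusted p = 0.0003). These neighbours are carried on a shared mRNA in mammals, and their ratio did not separate the groups, at 0.0955, 0.106 and 0.0951 mt-Nd4l per mt-Nd4 in hypoxia and 0.092, 0.114 and 0.0964 in normoxia. A further pump subunit, mt-Nd5, had 980, 813 and 829 CPM in hypoxia and 2136, 1691 and 1310 CPM in normoxia (-0.97, SE 0.16, adjusted p = 0.0024). All 3 genes kept the groups apart.

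The mRNA of complex III in this genome is mt-Cytb, cytochrome b, which carries the haems and quinone sites of that complex. Its level was 987, 772 and 811 CPM in hypoxia libraries, against 2915, 2157 and 1807 CPM in normoxia libraries. This was the lowest fitted log2 fold change of the 13 mRNAs, -1.42 (SE 0.17, adjusted p by edgeR 0.00038), and put hypoxia at 37.4% of normoxia. It ranged from -1.57 to -1.21 over all settings run. Within the libraries, mt-Cytb stood at 0.554, 0.485 and 0.516 of mt-Nd1 in hypoxia and at 0.885, 0.754 and 0.751 of it in normoxia. The first and last mRNA of the heavy strand therefore did not change in proportion; this ratio was chosen after its parts had been seen and has no test.

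Complex IV, cytochrome c oxidase, is the site where oxygen is reduced, and 3 mRNAs encode its core. The catalytic subunit mt-Co1 had 8296, 6954 and 6909 CPM in hypoxia libraries and 14701, 11672 and 9679 CPM in normoxia libraries (log2 fold change -0.70, SE 0.14, adjusted p by edgeR 0.0078). The subunit mt-Co2, which takes electrons from cytochrome c, had 374, 333 and 342 CPM in hypoxia and 496, 403 and 456 CPM in normoxia (-0.37, SE 0.094, adjusted p = 0.021). The third core subunit, mt-Co3, had 984, 1128 and 1086 CPM in hypoxia and 2090, 1978 and 1972 CPM in normoxia (-0.92, SE 0.081, adjusted p = 7.9e-05). All 3 were lower in hypoxia without overlap, but the counts of mt-Co2 and mt-Co3 are shared with nuclear gene models as described below. The call of mt-Co2 was lost without hypoxia replicate 2 (adjusted p = 0.1), hypoxia replicate 3 (0.07) or normoxia replicate 3 (0.053).

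ATP synthase takes its proton-channel subunit from mt-Atp6 and a small membrane subunit from mt-Atp8. For mt-Atp6, hypoxia libraries had 1052, 875 and 938 CPM and normoxia libraries 2187, 1377 and 1164 CPM (log2 fold change -0.72, SE 0.20, adjusted p by edgeR 0.028). For mt-Atp8 they had 76, 61 and 83.8 CPM in hypoxia, against 168, 160 and 101 CPM in normoxia (-0.96, SE 0.18, adjusted p = 0.0052). Both were lower in hypoxia, and the call of mt-Atp6 was lost without hypoxia replicate 2 (adjusted p = 0.095), without hypoxia replicate 3 (0.081) and with DESeq2's Wald test (0.058). Its log2 fold change was -0.41 without normoxia replicate 1, the highest of its 6 libraries. The 2 genes overlap in the genome. The 43 bases they share are printed in capitals with 15 bases on either side, since a read within them belongs to either gene.
mt-Atp8 into mt-Atp6: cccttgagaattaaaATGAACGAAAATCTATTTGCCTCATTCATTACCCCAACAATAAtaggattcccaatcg

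Reads of a stretch of the mitochondrial genome were also divided with nuclear gene models that carry nearly the same letters. A comparison of transcripts (at least 100 bases at 90% identity or more) found 17 such models, copies of mitochondrial DNA in the nuclear annotation, of which 7 passed the filter on low counts. The most abundant were Gm28661, identical to mt-Co2 over 681 of its 684 bases, Gm28437, identical to mt-Co3 over 783 of 784 bases, and Gm10925, identical to mt-Atp6 over 678 of 681 bases. Gm28661 held 87.5% to 91.2% of the counts it and the other copy shared with mt-Co2, and Gm28437 held 44.3% to 62.2% of those shared with mt-Co3. Gm28438, with 99.7% identity to mt-Nd3, held 85.2% to 90.2% of the counts shared with that gene. Gm10222 and Gm28439, identical to parts of mt-Nd4l and mt-Nd4, were listed at 0 in all 6 libraries.

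The division was uneven between the groups for mt-Atp6. Gm10925 held 10.1%, 14.3% and 15.2% of the combined counts in hypoxia libraries, against 20.1%, 35% and 33% in normoxia libraries, and its log2 fold change was -2.11 (SE 0.15, adjusted p by edgeR 2.6e-05). Gm29216, which has 99.8% identity to 483 of the 1545 bases of mt-Co1, went the other way, with 183, 426 and 350 CPM in hypoxia and 1.72, 204 and 89.9 CPM in normoxia. Its spread was wide and it did not pass the test (log2 fold change 1.70, SE 0.98, adjusted p = 0.26), while it was called higher with the replicate block (2.55, 0.009), with no filter (1.69, 0.00036) and without both replicate 1 libraries (1.40, 0.0082). Whether transcripts of the nuclear copies or of the mitochondrial genome gave these reads cannot be told apart from the counts, so the values below add each copy to its member, a choice made after seeing the data.

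With the copies added, mt-Co2 had 3040, 2676 and 2857 CPM in hypoxia and 5213, 4590 and 3811 CPM in normoxia. Its log2 fold change became -0.67 (SE 0.12, adjusted p by edgeR 0.0033), near that of mt-Co1 with its copies (-0.65, adjusted p = 0.0096). For mt-Atp6 the sums were 1170, 1021 and 1107 CPM in hypoxia and 2737, 2118 and 1738 CPM in normoxia (-1.0, SE 0.15, adjusted p = 0.0013). The fitted change of both genes was larger than with the mitochondrial gene alone. For mt-Co3 the sums were 2551, 2104 and 2136 CPM in hypoxia, against 5535, 4393 and 3538 CPM in normoxia (-0.99, SE 0.15, adjusted p = 0.0017). For mt-Nd3, whose protein has a loop that shifts between the active and resting states of complex I, they were 167, 164 and 179 CPM in hypoxia and 386, 348 and 321 CPM in normoxia (-1.05, SE 0.087, adjusted p = 5.2e-05). Without its copy mt-Nd3 had 18.6, 21 and 23.2 CPM in hypoxia and 57.3, 34 and 46.1 CPM in normoxia (-1.13, SE 0.17, adjusted p = 0.0014). The number of mRNAs called stayed at 12 lower and 0 higher, where 9.78% of genes were called lower in that fit.

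**Figure D2:**
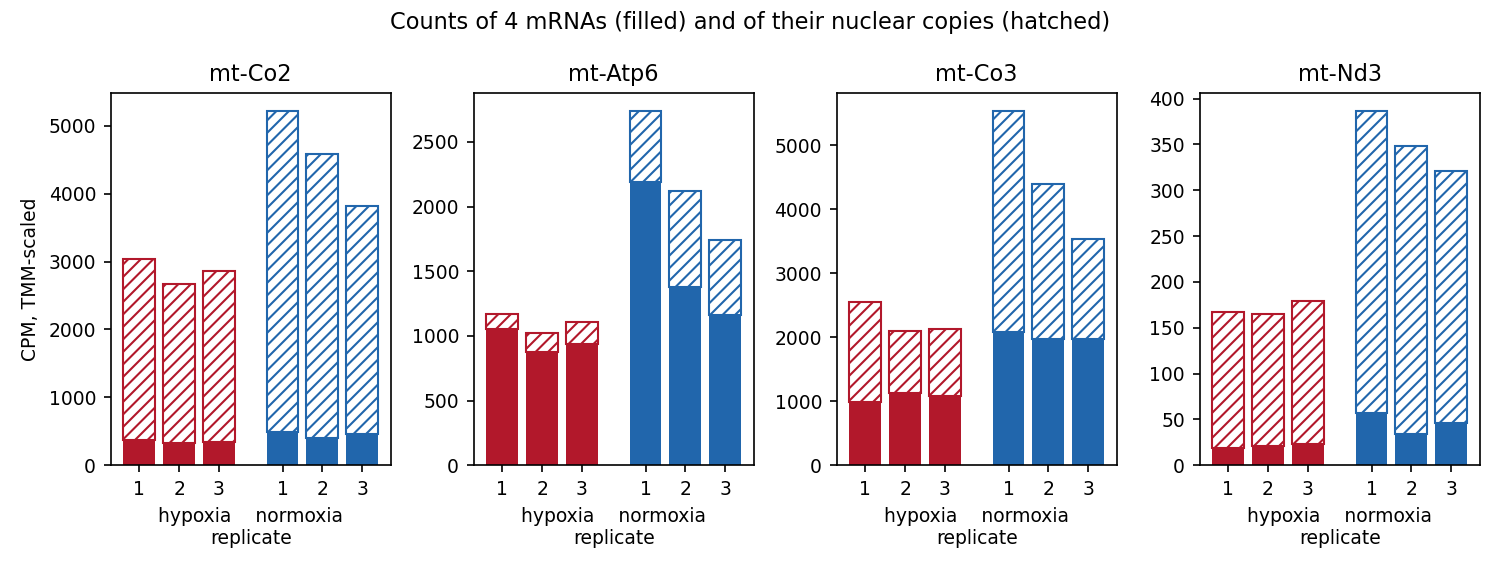
Counts (CPM) of 4 mRNAs in each library, filled for the mitochondrial gene and hatched for its nuclear copies stacked on it, hypoxia replicates left of normoxia replicates. The hatched part makes up most of mt-Co2 and mt-Nd3 in every library (at least 87.5% and 85.2%), and for mt-Atp6 it is smaller in hypoxia (10.1% to 15.2%) than in normoxia (20.1% to 35%).

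The mRNA of the light strand, mt-Nd6, encodes a membrane subunit of complex I and was the 1 mRNA that did not pass the test. It had 9.11, 12.4 and 10.9 CPM in hypoxia libraries and 13.8, 13.3 and 9.65 CPM in normoxia libraries. The groups overlapped, with means of 10.8 ± 1.63 in hypoxia and 12.3 ± 2.28 in normoxia (SD, n = 3 each, log2 fold change -0.18, SE 0.15, adjusted p by edgeR 0.45). Set against the other 12 mRNAs, it stood at 0.0552%, 0.087% and 0.0766% of their sum in hypoxia and at 0.0431%, 0.0519% and 0.0447% in normoxia. Every hypoxia library was above every normoxia library on this scale (log2 difference 0.63, exact permutation p = 0.1, the smallest that 3 against 3 can give). How well a selection by poly(A) tail captures mt-Nd6 was not examined.

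The 3′ ends of mt-Nd5 and mt-Nd6 lie on opposite strands of the same stretch. Their last 30 bases are printed to show this, with the 14 complementary bases in capitals. The library kit keeps strand information, but whether strand was used in the counting is not given in the sources used here, and without it reads of precursor RNA from the opposite strand could enter the low count of mt-Nd6. Its level per length was 20.8 CPM per kb in hypoxia and 23.6 CPM per kb in normoxia, against 479 and 939 CPM per kb for mt-Nd5 in hypoxia and normoxia.
mt-Nd5 end: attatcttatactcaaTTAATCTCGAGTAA
mt-Nd6 end: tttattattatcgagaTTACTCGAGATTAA

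Along the heavy strand the fold change tended to be more negative with distance from the rRNAs. With copies added, the first 4 mRNAs (mt-Nd1, mt-Nd2, mt-Co1 and mt-Co2) had log2 fold changes of -0.79 to -0.65, and the remaining 8 had -1.42 to -0.96. Across the 12 heavy-strand mRNAs the rank correlation of gene order with log2 fold change was -0.84 with copies added and -0.83 without. Over the 7 mRNAs whose copies held under 1% of their counts it was -0.82. These correlations are across genes of the same 6 libraries, which are not independent replicates, and carry no p-value. Neither they nor the split after the first 4 mRNAs were among the planned results. With the 12 genes alone, as deposited, the first 4 ran from -0.79 to -0.37 and the remaining 8 from -1.42 to -0.72, so the ranges then met.

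**Figure D3:**
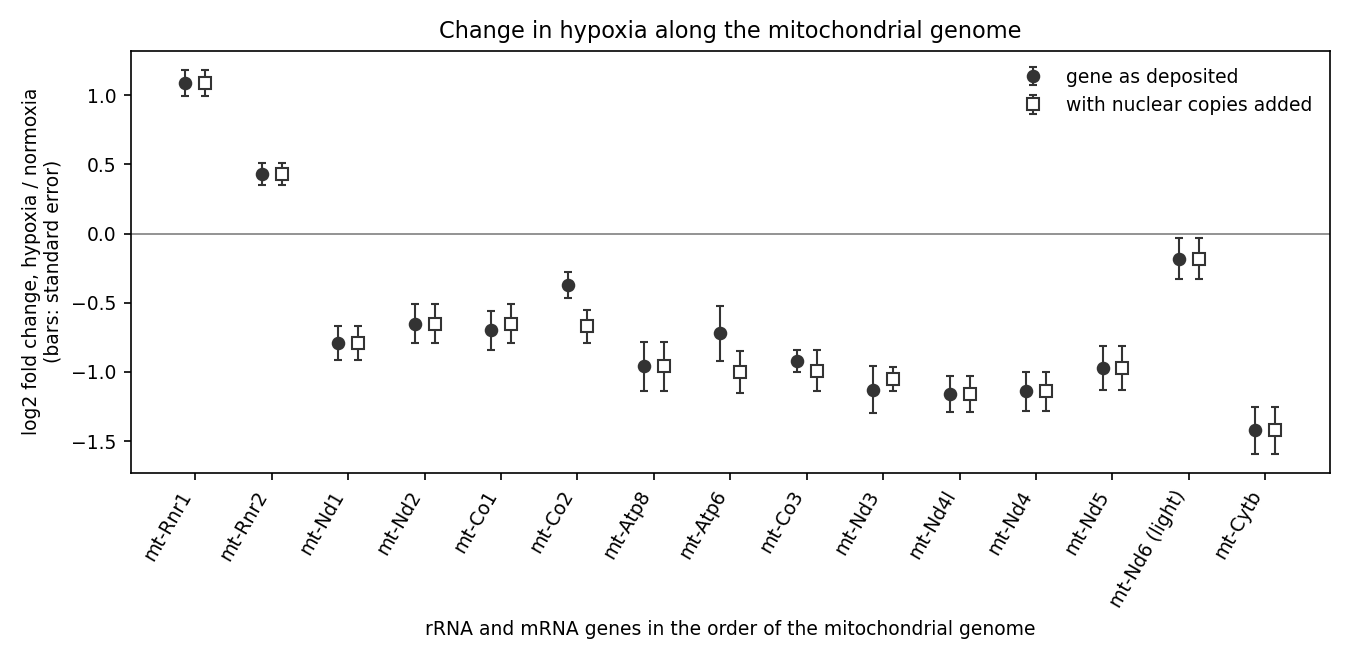
Log2 fold change of hypoxia over normoxia for each rRNA and mRNA in genome order, with filled circles for the gene as deposited and open squares with nuclear copies added; bars are standard errors. The rRNAs lie above 0 (1.09 and 0.43), the mRNAs of the heavy strand lie between -0.65 and -1.42 with copies added, and mt-Nd6 on the light strand lies at -0.18.

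The makeup of the mRNA pool shifted accordingly. The share of mt-Cytb among the 13 mRNAs was 5.98%, 5.43% and 5.68% in hypoxia libraries and 9.09%, 8.38% and 8.36% in normoxia libraries. The share of mt-Nd4 was 5.56% ± 0.225 in hypoxia and 6.93% ± 0.0708 in normoxia, and that of mt-Co1 was 49.2% ± 0.998 in hypoxia and 45.3% ± 0.533 in normoxia (SD, n = 3 each). Thus mt-Co1 took a larger part of the pool in hypoxia and mt-Cytb and mt-Nd4 a smaller one, without overlap between libraries. With copies added, mt-Co1 took 39.9% in hypoxia and 35.6% in normoxia and mt-Cytb 4.42% in hypoxia and 6.7% in normoxia. The share of mt-Nd1 overlapped between groups, at 11% in hypoxia and 10.8% in normoxia. Shares are a description and were not tested.

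Per length, mt-Co1 stood above the other mRNAs in both groups, at 4988 CPM per kb in hypoxia and 7843 CPM per kb in normoxia with copies added. It was followed by mt-Co2 (4178 CPM per kb in hypoxia, 6635 in normoxia) and mt-Co3 (2888 in hypoxia, 5725 in normoxia). The complex IV mRNAs thus led the order in both groups once the nuclear copies were counted with them. The rRNAs, at 1213 CPM per kb for mt-Rnr1 and 1015 for mt-Rnr2 in hypoxia and 572 and 751 in normoxia, lay below mt-Co1, in libraries whose preparation does not aim at rRNA.

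**Figure D4:**
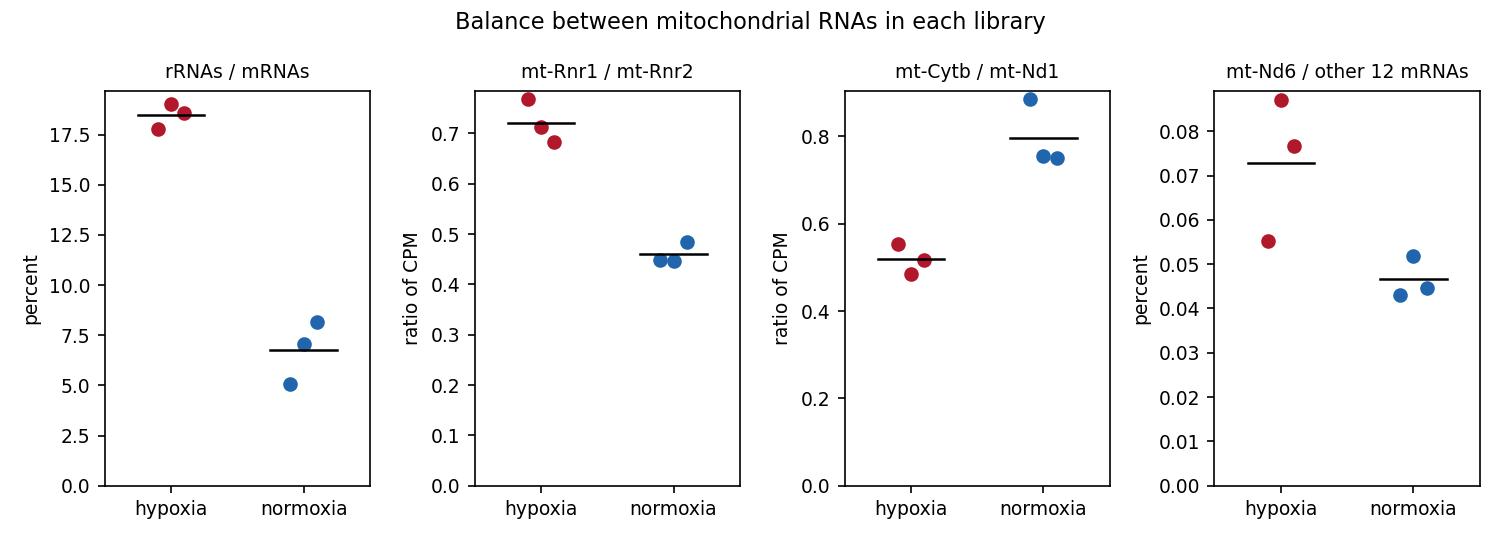
Balance between mitochondrial RNAs in each library (1 point per library, bars at group means, n = 3), hypoxia left of normoxia, all axes from 0. The rRNAs over the mRNAs (18.5% against 6.76%), mt-Rnr1 over mt-Rnr2 (0.721 against 0.46) and mt-Nd6 over the other 12 mRNAs (0.0729% against 0.0466%) are higher in hypoxia, and mt-Cytb over mt-Nd1 (0.519 against 0.797) is lower, each without overlap.

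The tRNAs, which are 59 to 75 bases long and carry no poly(A) tail, were barely captured. All 22 together had 40, 71 and 52 counts in hypoxia libraries and 40, 50 and 44 counts in normoxia libraries. The groups overlapped, with a log2 difference in the summed mitochondrial tRNA level of 0.17 (exact permutation p = 0.6), which turned to -0.018 without hypoxia replicate 2. Of the 22, 17 had a count in some library and 5 (mt-Tq, mt-Td, mt-Th, mt-Ts2 and mt-Tl2) had 0 in all, where 3 counts correspond to about 0.054 CPM. A floor of this kind covers counting error only.

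Only mt-Tl1 and mt-Tp passed the filter on low counts, and 0 of them were called by edgeR, by DESeq2's Wald test, by limma-voom or at an unadjusted edgeR p under 0.05. The leucine tRNA mt-Tl1 printed above had 7, 27 and 14 counts in hypoxia and 8, 26 and 16 counts in normoxia (log2 fold change -0.13, SE 0.52, adjusted p by edgeR 0.89), with replicate 2 highest in both groups. The proline tRNA mt-Tp had 20, 24 and 12 counts in hypoxia and 20, 3 and 14 counts in normoxia (0.51, SE 0.53, adjusted p = 0.55). The threonine tRNA mt-Tt had the next highest total, 24 counts over the 6 libraries. At these counts a difference was not detectable.

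The nuclear genes for the other subunits of the same complexes had fold changes nearer to 0 than the 12 heavy-strand mitochondrial mRNAs. The light-strand mt-Nd6, at -0.18, lay within the range of the nuclear genes. Of 77 tested nuclear subunit genes of complexes I to IV and ATP synthase, edgeR called 0 higher and 1 lower, where 11.2% and 9.72% of all genes were, with a median log2 fold change of -0.068 and a range of -0.31 to 0.20. DESeq2's Wald test and limma-voom also called 0 higher and 1 lower, and at an unadjusted p under 0.05 there were 2 higher and 7 lower, where 17.3% and 16.3% of all genes were. The gene called was Uqcrq, a small subunit of complex III, with 64.8, 59.9 and 66.4 CPM in hypoxia libraries and 84.8, 71.8 and 80.6 CPM in normoxia libraries (log2 fold change -0.31, SE 0.081, adjusted p by edgeR 0.023). Its call was lost without hypoxia replicate 1 (adjusted p = 0.052), hypoxia replicate 2 (0.13) or normoxia replicate 3 (0.06). With the replicate number as a block, 3 of the 77 were called higher and 25 lower, where 19.2% and 20% of all genes were called higher and lower in that fit.

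By complex, the 36 nuclear genes of complex I had a median log2 fold change of -0.066, the 4 of complex II -0.036, the 9 of complex III -0.095, the 11 of complex IV -0.041 and the 17 of ATP synthase -0.13. Complex II, which has no mitochondrial subunit, was represented by Sdhb, its iron-sulphur subunit (77.9 ± 9.84 CPM in hypoxia, 90.9 ± 9.57 in normoxia, adjusted p = 0.18), and Sdhd, a membrane anchor (99.7 ± 9.1 in hypoxia, 105 ± 13.9 in normoxia, adjusted p = 0.68). These medians lay close to 0 beside -0.92 for the mitochondrial mRNAs. The 2 members with the smallest p in each further complex were Ndufb4 (-0.25, adjusted p = 0.065) and Ndufa2 (-0.27, 0.085) in complex I, Uqcrq and Cyc1 (-0.20, 0.096) in complex III, Cox5b (-0.18, 0.22) and Ndufa4 (-0.15, 0.34) in complex IV and Atp5o (-0.17, 0.13) and Atp5d (-0.22, 0.15) in ATP synthase, by edgeR. With the replicate block their adjusted p-values, other than that of Uqcrq, ran from 0.0042 (Atp5d) to 0.03 (Cox5b), and that of Sdhb was 0.0024, so each of these 8 genes was called lower there.

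Within complex I the mitochondrial mRNAs with copies added summed to 2.42, 2.07 and 1.94 times the nuclear ones in hypoxia libraries and to 4.53, 3.98 and 3.02 times in normoxia libraries. For complex III the ratio was 1.14, 0.92 and 0.896 in hypoxia and 3.01, 2.45 and 1.88 in normoxia. For complex IV with copies added it was 8.57, 7.7 and 7.24 in hypoxia and 14.2, 13.1 and 10.4 in normoxia. The balance between the genomes was thus lower in every hypoxia library than in any normoxia library for these complexes. For ATP synthase with copies added it was 0.342, 0.312 and 0.309 in hypoxia and 0.699, 0.613 and 0.455 in normoxia. The log2 differences were -0.83, -1.29, -0.67 and -0.85 in that order with copies added, each with an exact permutation p of 0.1, also after adjustment over the 4 complexes. Without copies that of ATP synthase was -0.58, and -0.36 without normoxia replicate 1.

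**Figure D5:**
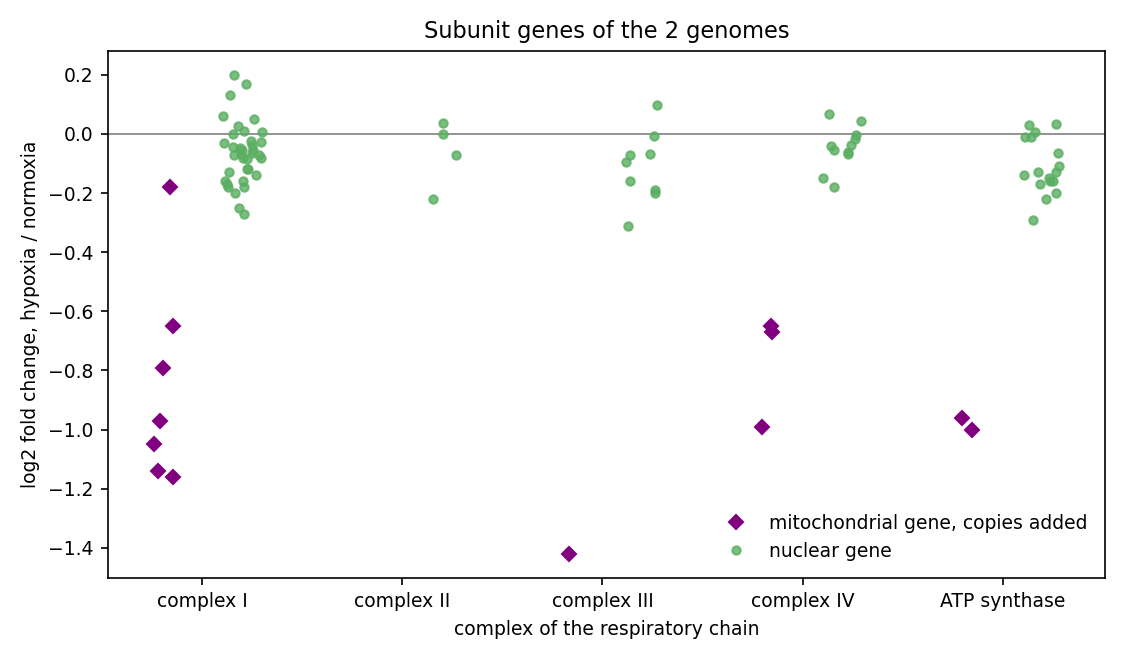
Log2 fold change of hypoxia over normoxia for the mitochondrial mRNAs with copies added (diamonds) and the nuclear subunit genes (circles) of each complex. The nuclear genes lie between -0.31 and 0.20, and the mitochondrial mRNAs lie below all of them except mt-Nd6 in complex I (-0.18), with complex II holding nuclear genes only.

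The proteins that copy the mitochondrial genome come from nuclear genes. The RNA polymerase gene Polrmt had 22.2 ± 0.868 CPM in hypoxia and 21.6 ± 3.01 CPM in normoxia, and Tfam, which packages the genome and starts its transcription, had 58.8 ± 3.73 CPM in hypoxia and 60.2 ± 4.02 CPM in normoxia. Neither passed the edgeR test (adjusted p = 0.85 and 0.81), nor did the initiation factor Tfb2m (27.4 ± 2.76 CPM in hypoxia, 28.9 ± 2.3 in normoxia, adjusted p = 0.61). These mRNAs of the initiation machinery thus overlapped between the groups. Of the 10 genes of mitochondrial transcription, 2 were called lower and 0 higher by edgeR, DESeq2's Wald test and limma-voom, and at an unadjusted p under 0.05. Of all genes, edgeR called 9.72% lower and 11.2% higher, or 16.3% and 17.3% at an unadjusted p under 0.05. Tfb1m, which methylates the small-subunit rRNA, had 10.5, 10.5 and 11.1 CPM in hypoxia libraries and 16.9, 15.4 and 17 CPM in normoxia libraries (log2 fold change -0.62, SE 0.084, adjusted p = 0.00085). It was lower while that rRNA, mt-Rnr1, was higher. Mterf2, a member of the termination factor family, was at -0.32 (adjusted p = 0.047), a call that ended without any 1 of the 6 libraries (adjusted p from 0.071 to 0.16), with library size alone (0.14) and under both other filters (0.096 and 0.054). Mterf1a and Mterf1b of the same family did not pass the edgeR test (adjusted p = 0.85 and 0.84).

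Among 25 tested genes of mitochondrial RNA processing, stability and decay, 3 were lower and 1 higher by edgeR, where 9.72% and 11.2% of all genes were. Hsd17b10, a subunit of the mitochondrial ribonuclease P that cuts the 5′ ends of tRNAs, had 49.9, 48.1 and 48.6 CPM in hypoxia libraries and 82.8, 79.6 and 81.8 CPM in normoxia libraries (log2 fold change -0.74, SE 0.063, adjusted p by edgeR 6.1e-05). The other subunits listed, Trmt10c (29.5 ± 1.98 CPM in hypoxia, 31.5 ± 2.84 in normoxia, adjusted p = 0.51) and the nuclease listed as 1110008L16Rik (13 ± 1.08 in hypoxia, 15.6 ± 1.27 in normoxia, adjusted p = 0.083), did not pass the test, and with the replicate block the nuclease did (log2 fold change -0.27, adjusted p = 0.011). Lactb2, a mitochondrial endoribonuclease, was lower (21.9 ± 0.873 CPM in hypoxia, 30.8 ± 2.18 in normoxia, -0.49, adjusted p = 0.0025). So was Pnpt1, the exoribonuclease of the decay complex (38.7 ± 2.86 in hypoxia, 48.2 ± 2.16 in normoxia, -0.31, adjusted p = 0.019), a call lost with library size alone (0.075) and without hypoxia replicate 1 (0.077), hypoxia replicate 2 (0.086), normoxia replicate 2 (0.069) or normoxia replicate 3 (0.053). Fastkd5, needed to process mRNAs that are not flanked by tRNAs, was higher (12.5 ± 1.93 in hypoxia, 8.97 ± 1.3 in normoxia, 0.47, adjusted p = 0.037), a call that ended when replicate 2 (0.073) or 3 (0.14) of hypoxia or replicate 1 (0.074) or 2 (0.13) of normoxia was left out. The mRNA-stabilising pair Lrpprc (-0.16, adjusted p = 0.40) and Slirp (-0.049, adjusted p = 0.80) did not pass the test, and with the replicate block Lrpprc did (-0.15, adjusted p = 0.033).

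Genes of mitochondrial DNA upkeep gave 3 lower and 0 higher of 14 by edgeR, DESeq2's Wald test and limma-voom, and at an unadjusted p under 0.05. Over all genes the edgeR shares were 9.72% lower and 11.2% higher, and 16.3% and 17.3% at an unadjusted p under 0.05. Polg, the catalytic subunit of the DNA polymerase, had 19.9, 20.9 and 19.1 CPM in hypoxia libraries and 24.3, 28.2 and 27.5 CPM in normoxia libraries (log2 fold change -0.42, SE 0.084, adjusted p by edgeR 0.007). Ssbp1, the single-strand binding protein, was at -0.34 (SE 0.068, adjusted p = 0.0069, and 0.051 without hypoxia replicate 2), and Top3a, a topoisomerase, at -0.35 (adjusted p = 0.017). The call of Top3a was lost with library size alone (0.07) and when replicate 1 (0.066) or 2 (0.079) of hypoxia or replicate 2 (0.077) of normoxia was left out. Of 10 biogenesis regulators 1 was called lower, where 9.72% of all genes were. It was Gabpb1, a subunit of the factor GABP (43.1 ± 0.131 CPM in hypoxia, 55 ± 2.53 in normoxia, -0.35, adjusted p = 0.0052), while Nrf1 was at -0.23 (adjusted p = 0.078, and 0.0048 with the block). The mitochondrial DNA content itself was not measured.

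Genes of general mitochondrial content had log2 fold changes of -0.34 to 0.10. Of 14, edgeR called 2 lower, where 9.72% of all genes were. DESeq2's Wald test called 4 lower (11.2% of all genes) and limma-voom 3 (9.76%). At an unadjusted edgeR p under 0.05 there were 5 lower (16.3% of all genes). With the replicate block 7 were lower and 0 higher, where 20% and 19.2% of all genes were. Citrate synthase, Cs, had 227 ± 14.1 CPM in hypoxia and 288 ± 20.7 in normoxia (log2 fold change -0.34, adjusted p by edgeR 0.018), and the prohibitin Phb2 had 197 ± 9.17 in hypoxia and 234 ± 13.4 in normoxia (-0.25, adjusted p = 0.046). The call of Cs was lost without hypoxia replicate 2 (adjusted p = 0.1) or 3 (0.061), and that of Phb2 with library size alone (0.15), under both other filters (0.055 each) and without hypoxia replicate 1 (0.15), 2 (0.2) or 3 (0.071) or normoxia replicate 2 (0.086) or 3 (0.15). The outer-membrane channel Vdac1 had 243 ± 17.5 CPM in hypoxia and 251 ± 25.2 in normoxia (adjusted p = 0.79). Of 6 mitophagy receptors, which mark mitochondria for removal, 0 were called by edgeR, DESeq2's Wald test or limma-voom, or at an unadjusted p under 0.05. With the block, which called 19.2% of all genes higher and 20% lower, 4 of the receptors were higher and 1 lower. Among them Bnip3l, a receptor gene known to be induced by low oxygen, had 270, 234 and 229 CPM in hypoxia and 252, 174 and 157 CPM in normoxia (0.33, adjusted p = 0.18, and 0.0027 with the block), and Fkbp8 had -0.16 (adjusted p = 0.17, and 0.024 with the block). Over the 79 genes of these 6 lists, edgeR called 1 higher and 11 lower, where 11.2% and 9.72% of all genes were, and with library size alone 2 higher and 7 lower, where 15.3% and 6.41% of all genes were.

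NK cell markers were detected, 10 of 10, with Gzmb at 11737 ± 1431 in hypoxia and 11985 ± 697 CPM in normoxia. Of these markers 1, Eomes, was called lower in hypoxia. With the replicate block 5 of the 10 were lower, adding Il2rb (adjusted p = 0.001), Klrk1 (0.0026), Ncr1 (0.0049) and Prf1 (0.0055), and Tbx21 was higher (0.041). Markers of other cells were also read. Counts of calls for these and for the NK markers stand beside 11.2% of all genes called higher and 9.72% called lower, or 19.2% and 20% with the block. The summed macrophage and dendritic cell list stood at 361 to 436 CPM in hypoxia and 181 to 214 CPM in normoxia, mostly Itgax, with C1qa at 0 in all libraries, and 3 of its 5 tested members were higher and 1 lower. Cd68 (61.9 ± 16.5 CPM in hypoxia, 16.4 ± 6.15 in normoxia) was among those higher, Cd14 was lower and Csf1r was not called. The basophil and mast cell list stood at 383 to 437 CPM in hypoxia and 236 to 258 CPM in normoxia, mostly Kit, with 3 of 4 tested members higher. Mcpt8 among them had 79.7 ± 6.61 CPM in hypoxia and 21.1 ± 4.1 in normoxia (log2 fold change 1.92, adjusted p by edgeR 1.9e-05), and Hdc was not called. The sums of both lists were above the normoxia range in every hypoxia library. T cell markers summed to 537 to 616 CPM in hypoxia and 570 to 581 CPM in normoxia, mostly Trbc1 and Trbc2. All 10 passed the filter on low counts, so detection of the NK markers alone does not identify the cells. Cd3d, Cd3g and Cd4 were higher (log2 fold changes 1.07, 0.87 and 1.69) and 0 were lower, and 4 were higher and 2 lower with the block. Cd4 was low, at 0.7 CPM in hypoxia and 0.215 in normoxia. B cell markers summed to 73 to 78 CPM in hypoxia and 54.8 to 70.3 CPM in normoxia (1 of 2 tested higher, and both with the block). Neutrophil markers reached 1.39 to 2.75 CPM in hypoxia and 0.153 to 0.343 CPM in normoxia (3 of 3 tested higher), and those of erythroid cells and platelets 1.58 to 1.96 CPM in hypoxia and 0.95 to 1.56 CPM in normoxia (1 tested, not called). The part of these cells in the mitochondrial differences was not tested.

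Among the libraries themselves the mitochondrial mRNAs varied together. In normoxia, replicate 1 was the highest library for 13 of 13 mRNAs and replicate 3 the lowest for 11, and with copies added replicate 3 was the lowest for 13. In hypoxia, replicate 1 was the highest for 9 of 13 mRNAs, and for 10 with copies added. The spread of the summed mRNA level was wider in normoxia (SD 5264 CPM) than in hypoxia (SD 1296 CPM). Leaving out any 1 library kept 10 to 12 mRNAs called lower, where 5.05% to 10.2% of all genes were, with 0 higher and both rRNAs higher.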

How the data were processed

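The authors deposited estimated counts per Ensembl gene, made with kallisto per the submitters' processing notes, which also name Trim Galore 0.6.4, kallisto 0.4.6, edgeR 3.17 and the build GRCm39; neither the annotation release nor the strand setting of the counting is given in the sources used here. Log2 values that the authors deposited beside the counts were not used. Symbols for 52029 of the 56953 IDs, transcript lengths, gene order and sequences came from GENCODE M21, an annotation of the earlier build GRCm38, so no coordinates are given. The unnamed IDs took 0.316% to 0.396% of a library's counts.

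Counts, of which 30.5% of values were not whole (tolerance 1e-06), were rounded. The filterByExpr function, set to a minimum count of 10 and a minimum total of 15, passed 15591 genes. A quasi-likelihood fit in edgeR 4.0.16 (R 4.3.3) with TMM scaling and no covariate gave the F-test of hypoxia against normoxia, adjusted by Benjamini-Hochberg and read at 0.05. The standard error of a fold change was taken as its size divided by the root of F. Sums and ratios were compared by two-sided exact permutation over libraries (scipy 1.17.1). Nuclear copies were found with blastn 2.17.0 on the M21 transcripts. A count corresponds to about 0.018 CPM in these libraries.

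Other settings were DESeq2 1.42.0 size factors and its Wald test, library size alone, TMM without the 37 genes, no filter beyond a total above 0, a filter of 1 CPM in 3 libraries, limma-voom (limma 3.58.1), a replicate block and leaving out each library. The combination of nuclear copies, the fit without both replicate 1 libraries and the rRNA over mRNA measure were added after seeing the data. The correlations with gene order and the split after the first 4 mRNAs were not planned either.

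Deviations from the group means of same-numbered libraries correlated across genes at 0.467, 0.332 and 0.298, all above the criterion of 0.1. Of the pairs with different numbers, hypoxia replicate 2 with normoxia replicate 3 also lay above it, at 0.118, and the others ran from -0.35 to -0.0125. The replicate numbers of the labels were taken to pair the libraries. The main fit and the exact permutation tests left this pairing out, while the replicate block and the sign-flip tests used it. Within a group no pair of libraries agreed within counting error (chi-square per gene of 12.4 to 59.2 on average), so none was counted as a repeat of another.

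Genes named are all members that are mRNAs or rRNAs, the tested tRNAs and the 3 with the highest totals, the 2 members with the smallest p of each nuclear list, Tfam, Polrmt, Tfb2m, Lrpprc, Slirp and Pnpt1, and the 3 most abundant nuclear copies. Hist1h2ap, Hist2h2be, Rpph1, Trmt10c, 1110008L16Rik, Fastkd5, Top3a, Vdac1, Gzmb, Eomes, Il2rb, Klrk1, Ncr1, Prf1, Tbx21, Itgax, Cd68, Cd14, Csf1r, Kit, Mcpt8, Hdc, Gm28438, Gm29216, Gm10222 and Gm28439 were named after their values were seen. So were Cd3d, Cd3g, Cd4, Trbc1, Trbc2, Mterf1a and Mterf1b. The members and lists were chosen with earlier results of these data known. Mtres1 of the processing list was not matched by symbol.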

Additional observations from a re-analysis of the deposited data

How the results depend on the processing

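Over the settings run, the mRNAs called lower numbered 10 to 12 with 0 higher, and the rRNAs 2 higher with 0 lower. The summed mRNA difference ran from -0.94 to -0.66 and the summed rRNA difference from 0.58 to 0.76 on the log2 scale. With the replicate block the mitochondrial mRNAs and rRNAs gave the same counts of calls (12 lower, 2 higher), while nuclear subunit genes numbered 3 higher and 25 lower (0 and 1 without it) and the 6 lists of mitochondrial upkeep 7 higher and 23 lower (1 and 11 without it), also with nuclear copies added. The block fit called 19.2% of all genes higher and 20% lower. Within pairs the sign-flip p of each sum cannot go below 0.25. Nuclear subunit genes called higher numbered 2 with library size alone, with or without copies added, 2 without both replicate 1 libraries and 0 to 1 with any 1 library left out, and those called lower numbered 2 with no filter and 0 to 1 with any 1 library left out. Genes of the 6 lists called higher numbered 2 with library size alone, 3 with no filter, 6 without both replicate 1 libraries and 0 to 5 with any 1 library left out, and those called lower numbered 7 with library size alone and 5 to 13 with any 1 library left out. The cause of these moves was not tested.

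Over the settings run, the sign turned for these values, none of them called: the summed tRNA difference (-0.018 without hypoxia replicate 2; 0.37 at most), mt-Tl1 (-0.71 to 0.32 with a library left out, 0.22 without hypoxia replicate 1), mt-Nd6 (0.019 without both replicate 1 libraries), Sdhd (0.012 with library size alone, -0.15 to 0.038 with a library left out, 0.0049 without hypoxia replicate 2), Tfam (0.047 with library size alone, -0.08 to 0.02 with a library left out, 0.0079 without hypoxia replicate 1), Polrmt (-0.071 to 0.12 with a library left out, -0.051 without both replicate 1 libraries), Tfb2m (0.002 with library size alone), Vdac1 (0.04 with library size alone, -0.11 to 0.036 with a library left out, 0.0082 without hypoxia replicate 2), Gzmb (0.051 with library size alone, -0.13 to 0.026 with a library left out, 0.024 without hypoxia replicate 2 and 0.01 without normoxia replicate 3, 0.027 without both replicate 1 libraries) and Slirp (0.031 with library size alone, -0.15 to 0.046 with a library left out, 0.026 without normoxia replicate 3). Across the other settings 59 of the genes named in the report were followed, called or not. Of their 1044 values, 926 kept direction and side of the threshold, 54 lost their call, 35 gained it and 29 turned sign. The tRNAs had no test under the filter of 1 CPM. The 40 to 71 tRNA counts per library and the 3 libraries per group limit what could be detected, and without a strand setting or a way to divide reads from near-identical copies the levels of mt-Nd6, mt-Co2, mt-Atp6, mt-Co3 and mt-Nd3 alone are uncertain.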
